A study of Mus musculus with 6 samples.

Results

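The 54 genes described here drive and mark cell division. They comprise the cyclins and cyclin-dependent kinases (CDKs), the E2F factors, the proteins that license and fire replication origins, the enzymes that make DNA precursors, and the kinases, motors and checkpoint proteins of mitosis. They were chosen by their mouse symbols and not by a measured value, although earlier results of these data were known. Each symbol matched exactly 1 Ensembl gene among the 49671 genes of the count table. Counts came from 6 RNA-seq libraries of neurospheres, the floating clonal aggregates that adult neural stem cells (NSCs) of the subventricular zone (SVZ) form in medium with the mitogens EGF and FGF. All cultures came from adult mice that were homozygous for a Tet3 allele with loxP sites around an exon (Tet3 loxp/loxp). The 3 libraries labelled Tet3-Gfap cre are from mice that also carried 1 copy of a Cre transgene under the mouse Gfap promoter, and the 3 labelled Tet3-Gfap control are from mice without the transgene. Cre thus acts in cells with an active Gfap promoter, such as astrocytes and GFAP-positive stem cells, and the deletion removes an exon and shifts the reading frame rather than removing the whole transcript. The study pooled animals to start each culture, and its description of the libraries does not state whether those of 1 genotype came from separate cultures, so p-values measure only the spread between these libraries. In the study, the growth of the spheres and the distribution of cells over the cycle phases were compared between the genotypes. The counts put the same question to the transcripts of the cell cycle.

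A dividing cell passes through a growth phase (G1), DNA synthesis (S), another gap (G2) and mitosis (M). D-type cyclins with CDK4 and CDK6 respond to mitogens and, with cyclin E and CDK2, phosphorylate the pocket proteins of the RB family, which frees E2F factors to switch on the genes of S phase. Late in the cycle a second wave, driven by the MuvB complex with B-MYB (Mybl2) and FOXM1, switches on the genes of G2 and mitosis. In cells that leave the cycle the DREAM complex, made of MuvB, a pocket protein and an E2F, holds both waves down. In cultures that cycle without synchrony, the level of such transcripts follows the share of cells in the phase where each is made. In bulk libraries a smaller share of cells in a phase and less RNA per cell cannot be told apart.

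The promoters of the 2 waves are known for different motifs, and the sequences below show them for members on which the results turn. Promoters (250 bases before to 50 after the annotated start, mouse build GRCm38.p6, from RefSeq) matched 43 of the 54 members. Those of Ccnd1, Ccnd2, Ccne2, Gmnn, Mcm4, Ccna2, Cdc25c, Foxm1, Aurkb, Kif20a and Tpx2 had no entry. Motifs were searched on both strands. They were the cell cycle genes homology region (CHR, TTTGAA or TTCGAA), which MuvB binds, the CCAAT box (CCAAT), which NF-Y binds, and an E2F-type site (TTCGCGC or TTGGCGC or TTCCCGC or TTGCCGC). A CHR was found in 15 of 21 promoters of the G2 and mitosis genes (71.4%) and in 2 of 11 promoters of the licensing and S phase synthesis genes (18.2%), with 19.4% over all 27025 promoters of the table. The E2F-type site was found in 3 of 21 (14.3%) and 8 of 11 (72.7%) of these promoters, with 9.69% over all promoters. CCAAT boxes were common in both, at 17 of 21 (81.0%) and 8 of 11 (72.7%), with 37.9% over all. Each line below runs from 180 bases before to 30 after the start, 5′ to 3′ on the strand of the gene, with every match to 1 of the 3 motifs on either strand in capitals, and matches that overlap run together.

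Ccnb2, Cdc20 and Mki67 are of the late wave.

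Ccnb2 (chr9:70421525-70421734, minus strand): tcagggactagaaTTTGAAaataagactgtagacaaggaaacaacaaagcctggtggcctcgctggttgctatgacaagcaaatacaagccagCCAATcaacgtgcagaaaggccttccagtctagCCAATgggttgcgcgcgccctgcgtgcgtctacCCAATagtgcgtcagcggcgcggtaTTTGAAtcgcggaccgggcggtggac

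Cdc20 (chr4:118437314-118437523, minus strand): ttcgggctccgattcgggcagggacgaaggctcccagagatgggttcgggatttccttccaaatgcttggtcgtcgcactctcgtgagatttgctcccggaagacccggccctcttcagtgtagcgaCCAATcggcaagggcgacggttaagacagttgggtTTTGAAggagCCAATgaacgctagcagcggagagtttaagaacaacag

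Mki67 (chr7:135716350-135716559, minus strand): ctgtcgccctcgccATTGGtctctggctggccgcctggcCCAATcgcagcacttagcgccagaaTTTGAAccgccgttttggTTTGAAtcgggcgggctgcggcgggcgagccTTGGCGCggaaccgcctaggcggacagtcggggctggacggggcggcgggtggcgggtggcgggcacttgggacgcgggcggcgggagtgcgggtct

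Mcm3, Mcm5 and Mcm6, subunits of the replicative helicase, are of the S phase wave.

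Mcm3 (chr1:20820283-20820492, minus strand): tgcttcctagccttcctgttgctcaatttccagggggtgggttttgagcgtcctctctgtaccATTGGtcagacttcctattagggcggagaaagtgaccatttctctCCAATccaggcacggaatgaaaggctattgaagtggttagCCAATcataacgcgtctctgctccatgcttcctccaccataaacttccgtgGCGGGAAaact

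Mcm5 (chr8:75109329-75109538, plus strand): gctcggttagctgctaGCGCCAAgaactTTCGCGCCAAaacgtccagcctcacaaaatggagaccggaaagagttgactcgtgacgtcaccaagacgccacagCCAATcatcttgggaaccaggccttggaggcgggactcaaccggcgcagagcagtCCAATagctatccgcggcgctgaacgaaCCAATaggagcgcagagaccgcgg

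Mcm6 (chr1:128359676-128359885, minus strand): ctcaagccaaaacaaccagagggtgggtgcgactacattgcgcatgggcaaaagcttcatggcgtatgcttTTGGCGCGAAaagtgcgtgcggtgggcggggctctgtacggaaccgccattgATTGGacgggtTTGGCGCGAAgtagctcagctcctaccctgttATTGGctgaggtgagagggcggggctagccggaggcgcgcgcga

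In these windows the Ccnb2 promoter held 2 CHR (TTTGAA) and 3 CCAAT matches, the CHR nearest the start beginning at position 5. In Cdc20 there were 1 CHR, at position -18, and 2 CCAAT boxes. The Mki67 window held 2 CHR, 2 CCAAT boxes and 1 E2F-type site. None of the 3 Mcm windows held a CHR, and E2F-type matches numbered 1 in Mcm3, 3 in Mcm5 and 4 in Mcm6. Some of these matches overlap on opposite strands, in Mcm6 those at -109 and -106 and at -46 and -43, and in Mcm5 those at -152 and -149. Over the 300 bases searched, the promoters of Mcm2 and Mcm7, not printed here, held 1 CHR each. Mcm2 had 0 E2F-type matches there and Mcm7 had 3. Positions are counted from the annotated start. A match is a description of the letters only, and binding was not measured here.

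The libraries held 29660398 to 35405326 counts, and levels are given in CPM, the count scaled to a common library size adjusted by the trimmed mean of M values (TMM), in the order of labels 1, 2 and 3. Tet3, the targeted gene, went against 2 labels. It was at 114, 136 and 60.3 CPM under the control label and at 61.3, 60.5 and 116 CPM under the cre label. The library labelled control 3 was thus as low as those labelled cre 1 and 2, while the one labelled cre 3 lay within the range of those labelled control 1 and 2. Reads over the exons outside the deleted one count towards Tet3, so this is a partial check. The study describes Gfap exons as part of the transgene cassette, so Gfap reads from the gene and from the transgene cannot be told apart here. Gfap followed the same split, at 0.503, 0.327 and 6.62 CPM under the control label and 3.84, 3.52 and 0.280 CPM under the cre label. Groups are therefore called by their labels throughout, and each main result is also given for the 4 libraries numbered 1 and 2 under either label. The 13 progenitor markers had a median mean level of 186 CPM. Some of them were well above it in all 6 libraries (Nes 1501 to 1619 CPM, Olig2 867 to 987 CPM, Egfr 462 to 562 CPM). The markers below that median are not named here. The 8 oligodendrocyte markers summed to 60.6 to 92.1 CPM. The 6 ependymal markers summed to 16.6 to 24.1 CPM, most of it from Foxj1 (14.6 to 22.8 CPM), with Tmem212 and Pifo at 0 in all 6 libraries. The 8 microglial and macrophage markers summed to 2.49 to 5.28 CPM, most of it from Cd68, and Aif1, Cx3cr1 and Tmem119 did not exceed 0.085 CPM in any library.

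No cell cycle or replication gene passed the test of a difference between the labels. All 54 passed the filter on low counts, with at least 294 counts in every library. In edgeR's quasi-likelihood test over 16916 genes, adjusted by Benjamini-Hochberg at a threshold of 0.05, 0 of 54 members were called, beside 0% of all genes. At an unadjusted p under 0.05 there were again 0 members, beside 846 genes or 5.0% of all. DESeq2 called 70 genes, the likelihood-ratio test 51 and limma-voom 0, and none of these was a member. Ccnb2 was the only member below an unadjusted p of 0.05 in each of those 3 tools. The log2 fold change (cre over control) was below 0 for 30 members and above 0 for 24, with a median of -0.013 over the members and -0.0050 over all genes tested.

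By the labels, 2 of which Tet3 went against, the intervals are narrow enough to bound the differences. The 95% interval of the log2 fold change held 0 for all 54 members. It lay within 1.5-fold either way for 52 of them and within 1.4-fold for 50. The 2 outside the wider bound were Cdk6 and Ccnb2. In the 4 libraries numbered 1 and 2 under either label, the interval excluded 0 for Ccnb2 (-0.92 to -0.26) and Cenpf (0.0041 to 0.41). The median standard error (SE) of the members' log2 fold change was 0.085, and the range was 0.060 to 0.42. From the lowest to the highest of the 6 libraries, the CPM of a member differed by a median of 1.21-fold, and 49 of 54 differed by less than 1.4-fold. For the 7508 genes with mean CPM in the members' range the median was 1.20-fold, so the members were about as steady as other genes of their abundance. The 5 members at 1.4-fold or more were Cdk6 (4.02-fold), Ccnb2 (1.80-fold), Mcm6 (1.63-fold), Mcm3 (1.50-fold) and Cdc25b (1.49-fold), while 17.1% of the comparison genes were there.

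**Figure D1:**
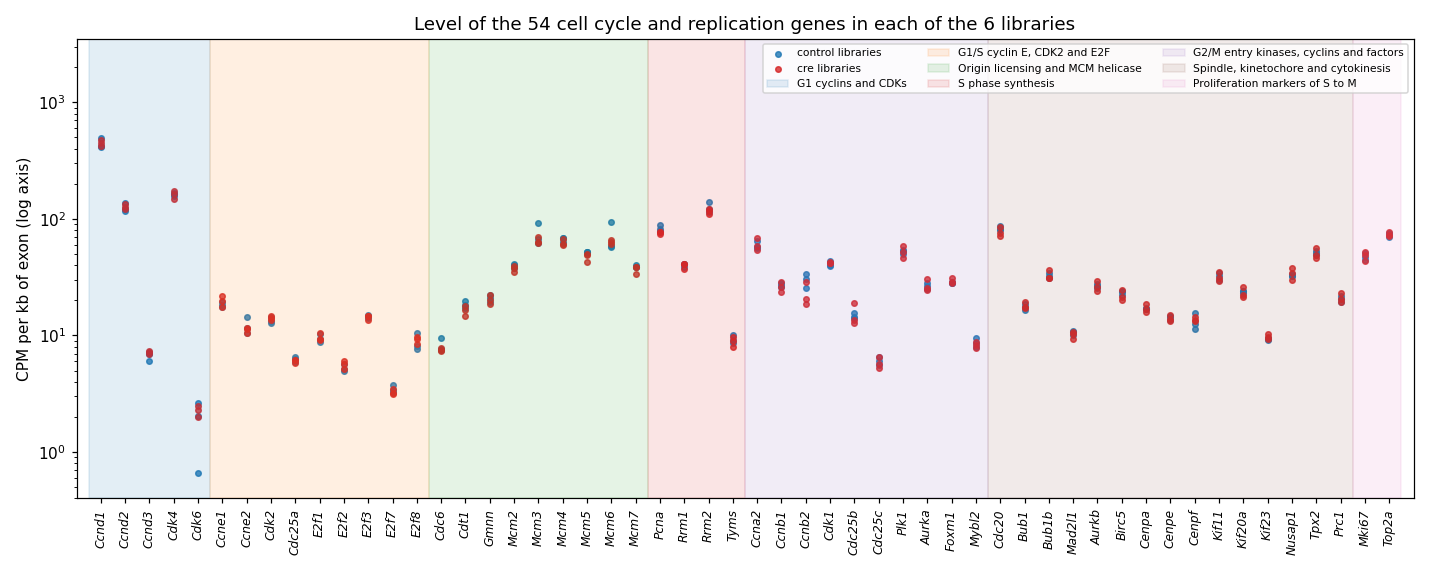
Level of each of the 54 genes in CPM per kb of exon (log axis), with 1 point per library, blue for the libraries labelled control and red for those labelled cre. The shading marks the 7 phase groups in the order of the cycle. Ccnd1 has the highest mean at 446 CPM per kb and Cdk6 the lowest at 2.03, and for most genes the points of both colours lie on top of each other.

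**Figure D2:**
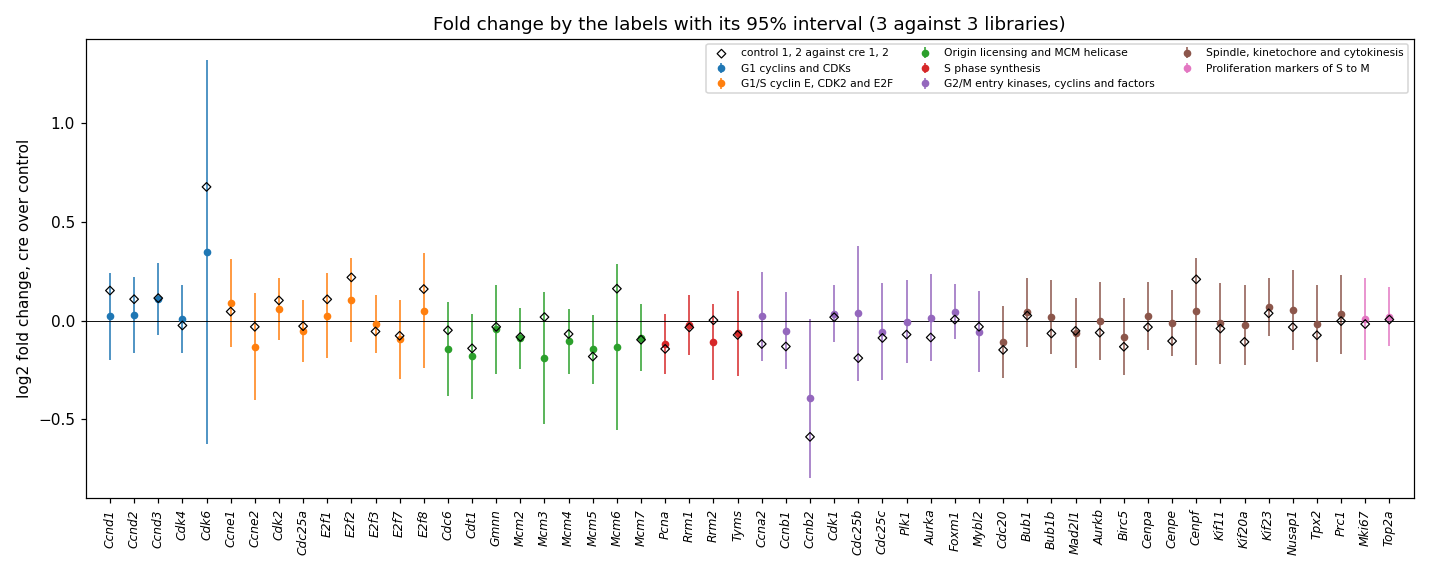
Fitted log2 fold change, cre over control by the labels, of each gene (filled points, 3 against 3 libraries) with its 95% interval (bars), and the same value from the 4 libraries numbered 1 and 2 under either label (open diamonds). Every bar crosses 0, and the longest bar, that of Cdk6, runs from -0.62 to 1.32.

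Ccnd1, Cdk4 and Ccnd2 were the most abundant members per kb. Levels between genes are compared as CPM per kb of exon. Cyclin D1 (Ccnd1), the mitogen-induced partner of CDK4 and CDK6, had a mean of 446 CPM per kb, above 99.5% of the genes tested, against 126 for cyclin D2 (Ccnd2) and 6.95 for cyclin D3 (Ccnd3). The ratio of Ccnd1 to Ccnd2 ranged from 3.35 to 3.86 over the 6 libraries. Ccnd1 was at 1968, 1935 and 2345 CPM under the control label and at 2226, 2114 and 2001 CPM under the cre label. These groups overlapped, with a log2 fold change of 0.021 (SE 0.094). Ccnd3 was at 62.2, 53.0 and 60.8 CPM against 63.8, 60.9 and 65.1 CPM, a log2 fold change of 0.11 (SE 0.079, unadjusted p = 0.203). The kinase Cdk4 was even across libraries, at 536, 535 and 508 CPM under the control label and 486, 569 and 535 CPM under the cre label. All 5 members of the group had a log2 fold change above 0, from 0.0087 (Cdk4) to 0.35 (Cdk6).

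Cdk6, the other kinase of the D cyclins, was the least abundant member per kb and the least steady. It was at 9.24, 28.5 and 37.1 CPM under the control label and at 32.4, 28.2 and 34.9 CPM under the cre label. The library labelled control 1 thus stood below the other 5, which lay within 28.2 to 37.1 CPM. Its log2 fold change of 0.35 had an SE of 0.42 and became -0.044 without the library labelled control 1. Per kb, Cdk4 exceeded Cdk6 by 59.0-fold to 87.0-fold in the other 5 libraries and by 250-fold in that library.

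At the G1/S step, cyclin E, CDK2 and the E2F factors were expressed at a lower level, from 3.38 CPM per kb (E2f7) to 19.0 (Ccne1). Cyclin E1 (Ccne1), the activator of CDK2 at S phase entry, was at 46.5, 49.0 and 51.7 CPM under the control label and at 46.3, 52.4 and 58.1 CPM under the cre label. Cyclin E2 (Ccne2) was at 40.8, 36.9 and 49.9 CPM against 39.4, 36.6 and 40.4 CPM, and the library labelled control 3 was the highest. Its log2 fold change was -0.13 (SE 0.12, unadjusted p = 0.289). Among the activator E2Fs, E2f3 had the highest level per kb (14.3) and was nearly constant, at 78.0, 81.0 and 76.1 CPM against 74.0, 79.1 and 79.1 CPM. E2f2 was at 24.2, 25.3 and 27.7 CPM against 27.9, 29.7 and 25.4 CPM, a log2 fold change of 0.11 (SE 0.091). E2f7 and E2f8, the atypical E2Fs that repress E2F targets late in S phase, had log2 fold changes of -0.095 and 0.050. Of the 9 genes in this group, 5 were above 0 and 4 below.

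No origin licensing or MCM helicase gene passed the test, although all 9 had a log2 fold change below 0, from -0.19 (Mcm3) to -0.044 (Gmnn). CDC6 and CDT1 load the MCM complex on origins in G1, geminin (Gmnn) holds CDT1 in check, and the MCM2 to MCM7 subunits form the helicase that opens the DNA. The libraries labelled cre were not all lower. The summed level of the 9 genes was 1562, 1502 and 1841 CPM under the control label and 1417, 1581 and 1489 CPM under the cre label, highest in the library labelled control 3 and lowest in that labelled cre 1, with that labelled cre 2 above those labelled control 1 and 2. The high sum in the library labelled control 3 came largely from Mcm3 and Mcm6. Both were also higher in the library labelled cre 2 (264 and 305 CPM) than in that labelled control 1 (254 and 272 CPM). The order of the sums thus depends on these genes. The 6 subunits were at similar levels, from 38.2 CPM per kb (Mcm7) to 69.7 (Mcm3). Mcm5 was at 209, 208 and 206 CPM under the control label and at 169, 198 and 195 CPM under the cre label. The 2 groups did not overlap, and the library labelled cre 1 was the lowest, with a log2 fold change of -0.15 (SE 0.074, unadjusted p = 0.0868, adjusted p = 0.9998). Cdt1 was at 53.8, 57.8 and 61.8 CPM against 45.7, 55.7 and 51.7 CPM, and the library labelled cre 2 lay within the range of the other group. Its log2 fold change was -0.18 (SE 0.093, unadjusted p = 0.0891).

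Within the helicase, Mcm3 and Mcm6 stood apart in 1 library. Mcm3 was at 254, 235 and 347 CPM under the control label and at 232, 264 and 237 CPM under the cre label. Mcm6 was at 272, 267 and 435 CPM against 298, 305 and 283 CPM. For both genes the library labelled control 3 was the highest and the other 5 lay close together. Relative to the mean of Mcm2, Mcm4, Mcm5 and Mcm7 per kb, Mcm3 was at 1.83 in that library and 1.30 to 1.45 in the other 5, and Mcm6 at 1.84 against 1.16 to 1.50. The log2 fold changes of -0.19 (SE 0.14) for Mcm3 and -0.14 (SE 0.18) for Mcm6 became -0.0038 and 0.13 without the library labelled control 3. The rise in the library labelled control 3 was not confined to the helicase. Cenpf, like Mcm3 and Mcm6 a gene of chromosome 1, was also highest there, at 242 CPM against 175 to 221 CPM in the other 5. So were 35 of the 58 other replication genes described below. Among these, Orc2 was at 113 CPM against 73.2 to 87.3 CPM and Prim2 at 72.0 against 48.0 to 56.6 CPM. Exo1 was at 79.9 against 52.0 to 58.7 CPM. The cause of these higher levels in 1 library was not tested.

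The 4 genes of S phase synthesis were also below 0 on the log2 scale, from -0.12 (Pcna) to -0.022 (Rrm1). PCNA is the clamp that holds DNA polymerases on the template. Its transcript was at 212, 191 and 196 CPM under the control label and at 178, 187 and 186 CPM under the cre label. These groups did not overlap, with a log2 fold change of -0.12 (SE 0.065, unadjusted p = 0.104). Rrm2, the S phase subunit of ribonucleotide reductase, was the most abundant of the 4 at 121 CPM per kb, and was at 340, 320 and 385 CPM against 323, 338 and 308 CPM, which overlapped. Mcm5 and Pcna were the only members whose groups did not overlap, 2 of 54 with the cre label lower beside 4.66% of all genes, and 0 of 54 with the cre label higher beside 4.81%.

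**Figure D3:**
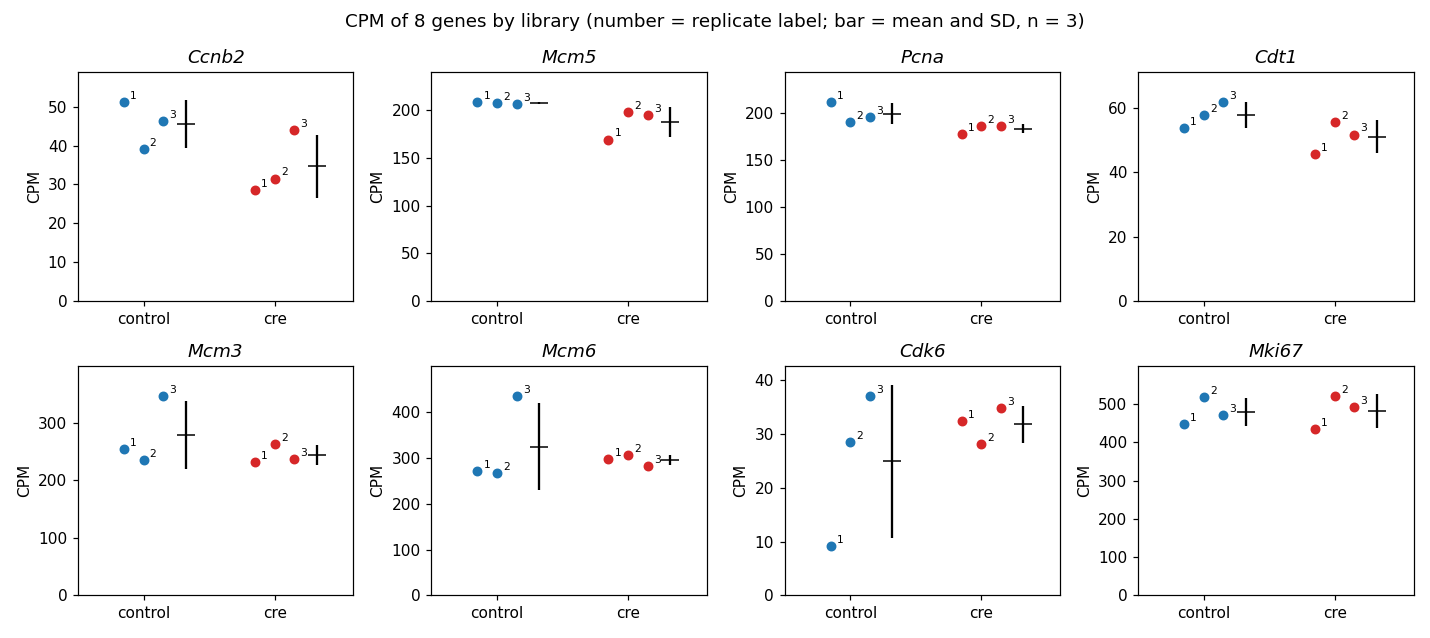
CPM of 8 genes in each library, with the number of the label beside each point and the mean and standard deviation (SD) of each group as a bar (n = 3 libraries). In Ccnb2 the libraries labelled cre 1 and 2 lie below the other 4 (28.5 and 31.5 against 39.1 to 51.3 CPM), in Mcm3 and Mcm6 the library labelled control 3 lies above the rest, in Cdk6 the library labelled control 1 lies below the rest, and in Mki67 the groups overlap.

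Among the kinases and cyclins of G2/M entry, Ccnb2 had the log2 fold change farthest from 0, and by the labels in edgeR the farthest of all 54 members, although Cdk6 was farther in 6 of 15 alternatives, the 4 libraries (0.68 against -0.59) and limma-voom (0.56 against -0.41) among them. Cyclin B2 (Ccnb2) activates CDK1 at the entry into mitosis. It was at 51.3, 39.1 and 46.3 CPM under the control label (mean 45.5 ± 6.14, SD, n = 3) and at 28.5, 31.5 and 43.9 CPM under the cre label (mean 34.7 ± 8.13, SD, n = 3). The library labelled cre 3 lay within the range of the libraries labelled control, so the groups overlapped. The log2 fold change was -0.39 (SE 0.17), with an unadjusted p of 0.0535 in edgeR and 0.9998 after adjustment. Leaving out 1 library at a time gave -0.60 to -0.27. From the 4 libraries it was -0.59 (SE 0.14), with an unadjusted p of 0.0041 and 0.162 after adjustment, the smallest adjusted p of a member in any setting run. The other B-type cyclin, Ccnb1, was at 118, 110 and 114 CPM against 110, 99.1 and 121 CPM, a log2 fold change of -0.053 (SE 0.084), and the difference between the 2 cyclins was not tested. Per kb, the ratio of Ccnb2 to Ccnb1 was 1.19, 0.976 and 1.12 under the control label and 0.717, 0.877 and 0.998 under the cre label.

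The rest of the G2/M entry group lay within -0.056 to 0.045 on the log2 scale. Cyclin A2 (Ccna2), which acts in S phase and G2, had the highest level per kb of the group (59.7) and was at 262, 236 and 228 CPM against 237, 223 and 277 CPM. The kinase Plk1, which drives mitotic entry and spindle assembly, was at 117, 110 and 118 CPM against 115, 102 and 128 CPM. The factor Foxm1 was nearly constant, at 164, 161 and 163 CPM against 164, 163 and 177 CPM, with a log2 fold change of 0.045 (SE 0.060). In Ccna2, Plk1 and Foxm1 the highest library was the one labelled cre 3. Cdc25b, the phosphatase that starts CDK1 activation, was also highest there, at 70.6 CPM against 47.5 to 58.4 CPM in the other 5.

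The 15 genes of spindle, kinetochore and cytokinesis had log2 fold changes between -0.11 (Cdc20) and 0.069 (Kif23), with 8 below 0 and 7 above. Cdc20, which activates the anaphase-promoting complex, had the highest level of the group at 80.4 CPM per kb. It was at 150, 154 and 163 CPM under the control label and at 141, 134 and 158 CPM under the cre label, with an SE of 0.078. Tpx2, which nucleates spindle microtubules and activates Aurora A, was at 240, 231 and 249 CPM against 230, 218 and 265 CPM. Kif23, a motor of the central spindle, was at 72.5, 73.7 and 74.5 CPM against 76.4, 73.7 and 81.3 CPM. The groups overlapped in all 15 genes. Cenpf, a kinetochore protein, was the one with the widest range, from 175 CPM in the library labelled control 1 to 242 CPM in that labelled control 3.

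The 2 general proliferation markers were at close levels under both labels. Mki67, which encodes the Ki-67 antigen of cycling cells, was at 448, 518 and 471 CPM under the control label and at 434, 521 and 492 CPM under the cre label, a log2 fold change of 0.0098 (SE 0.089, 95% interval -0.20 to 0.22). Top2a, the topoisomerase that untangles chromosomes, was at 674, 631 and 678 CPM against 648, 662 and 699 CPM, a log2 fold change of 0.019 (SE 0.064, 95% interval -0.13 to 0.17). The summed level of all 54 genes was 10734 to 11955 CPM over the 6 libraries.

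**Figure D4:**
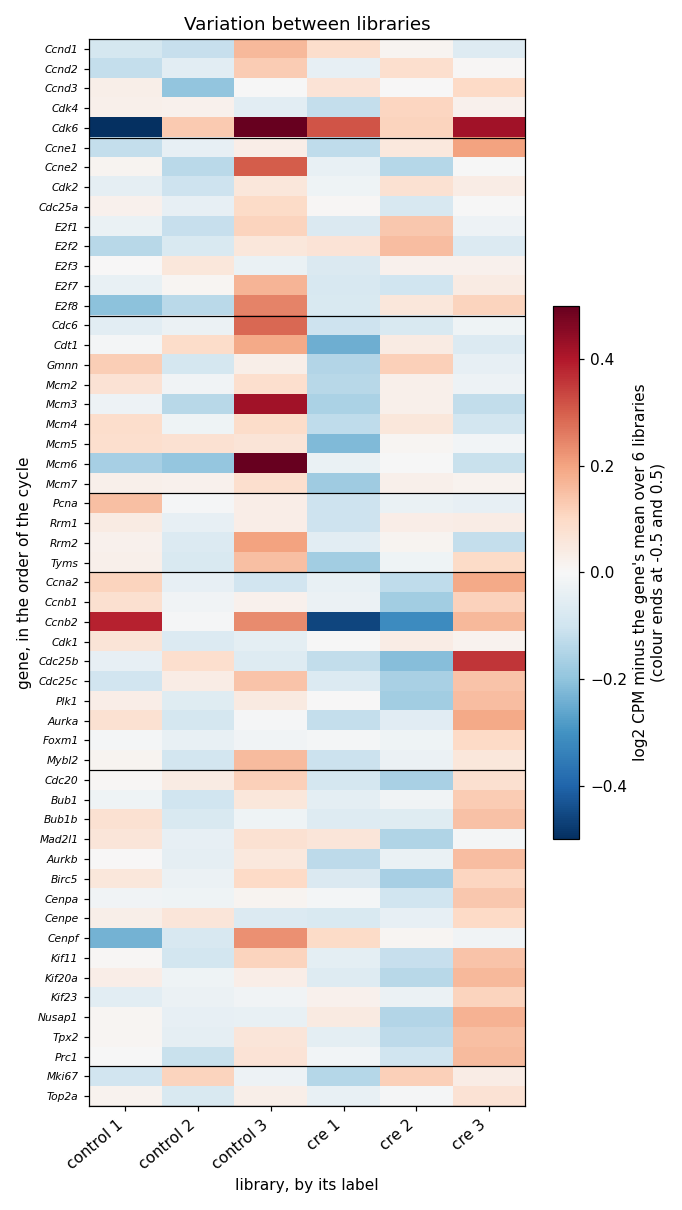
Difference of each gene's log2 CPM from its own mean over the 6 libraries, with genes in the order of the cycle, lines between the phase groups and colours that end at -0.5 and 0.5. Red in the library labelled cre 3 runs through the G2/M and spindle groups, and blue in the library labelled cre 1 through the licensing and synthesis groups.

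Genes of a phase often had their highest or lowest value in the same library. Of the 27 G2 and mitosis genes (the last 3 phase groups), 19 were highest in the library labelled cre 3, where 13.2% of all genes tested had their highest value, and 13 were lowest in the library labelled cre 2 (17.0% of all genes). Of the 13 licensing and synthesis genes, 9 were highest in the library labelled control 3 (22.5% of all genes) and 11 were lowest in that labelled cre 1 (14.7% of all genes). The median difference from the genes' own means was 0.13 on the log2 scale for the mitosis genes in the library labelled cre 3 and -0.10 in that labelled cre 2. For the S phase genes it was 0.093 in the library labelled control 3 and -0.14 in that labelled cre 1. The summed CPM of the 27 over that of the 13 ran from 1.47 in the library labelled control 3 to 1.82 in that labelled cre 3. The low value in the library labelled control 3 depends on Mcm3 and Mcm6, which were at 347 and 435 CPM there. It is therefore not a shift shared evenly by the 13 genes. Genes of a phase are not independent of each other, so these counts describe 6 libraries and carry no test.

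Replication genes outside the 54 often had their extremes in the same libraries. Of 58 other replication genes (origin recognition, GINS, polymerases, clamp loader, repair of replication forks), 35 were highest in the library labelled control 3 and 34 were lowest in that labelled cre 1. Of 59 other mitosis genes (condensins, kinesins, kinetochore and spindle proteins), 27 were highest in the library labelled cre 3 and 19 in that labelled control 3, while the lowest values were divided over the libraries labelled cre 2 (17), cre 1 (16) and control 2 (14). Markers of other cells also differed between these libraries. In the library labelled cre 1, with the lowest S phase levels, the collagen genes Col1a1, Col1a2 and Col3a1 and the proteoglycan gene Dcn were at 5.40, 5.51, 9.21 and 4.72 CPM, and none of the 4 exceeded 0.65 CPM elsewhere. The 8 pericyte and fibroblast markers summed to 2.39 to 4.28 CPM in the libraries labelled control and to 28.8, 1.47 and 6.56 CPM in those labelled cre, and Col1a2 was at 0 in those labelled control 3, cre 2 and cre 3. The 7 astrocyte markers summed to 807 CPM in the library labelled cre 1, the lowest, and to 1233 CPM in that labelled control 3, the highest, but did not move as 1 group. In the library labelled cre 1, 3 of the 7 had their lowest value, among them Aldh1l1 at 126 CPM against 351 to 510 CPM in the other 5, while the median difference from the markers' own means was lowest in the library labelled control 1 (-0.39). In the library labelled control 3, with the highest S phase levels, the 8 neuronal markers (1063 to 1425 CPM over the 6 libraries, most of it from Map2) and the 6 endothelial markers (2.14 to 12.5 CPM, most of it from Flt1 in that library, where Cldn5 and Cdh5 were at 0) also had their highest sums. The neuronal markers did not move as 1 group either, since of the 7 that passed the filter 2 were highest and 2 lowest in that library. The part of these cells in the S phase and mitosis levels was not tested.

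**Figure D5:**
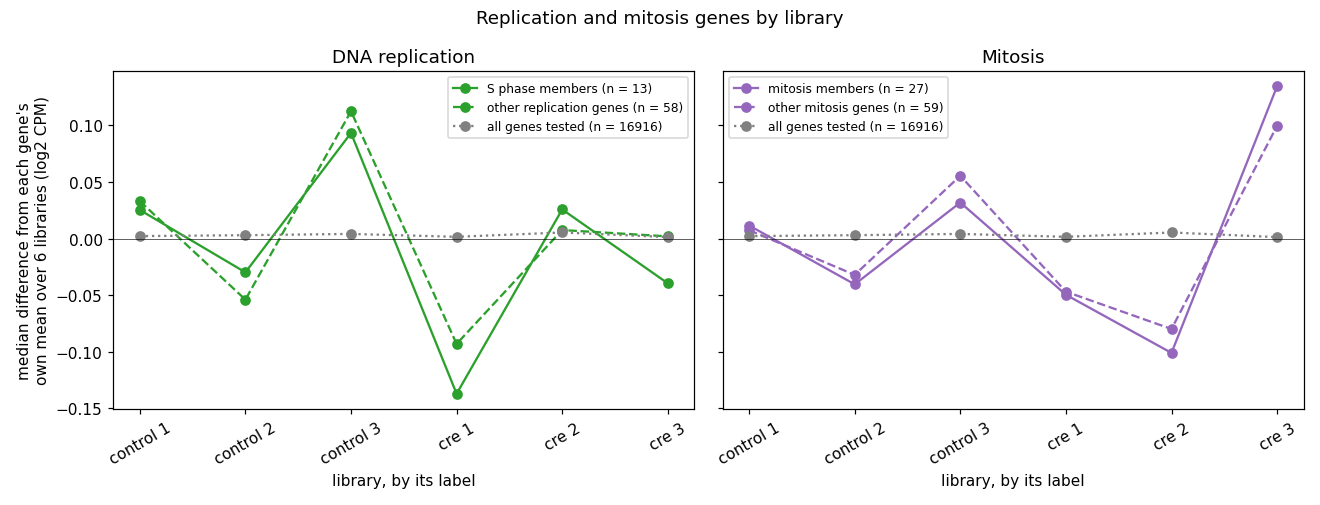
Median over the genes of a list of the difference from each gene's own mean (log2 CPM) in each library, with the 13 licensing and synthesis genes and 58 other replication genes on the left, the 27 G2 and mitosis genes and 59 other mitosis genes on the right, and all 16916 genes tested as the grey dotted line. Members and the other genes of the same phase follow each other, and the mitosis genes peak in the library labelled cre 3 (0.13) while the replication genes are lowest in that labelled cre 1 (-0.14).

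By the labels, the 13 licensing and synthesis genes were all below 0, with a median log2 fold change of -0.11, where 51.6% of all genes tested were below 0. Of the 58 other replication genes 47 were below 0, with a median of -0.061. Without the library labelled cre 1 the 13 genes had 10 below 0 and a median of -0.077, and without that labelled control 3 they had 12 below 0 and a median of -0.044. The 27 G2 and mitosis genes were spread evenly, with 13 below 0 and a median of 0.0098, and the 59 other mitosis genes had 35 below 0 and a median of -0.013. Without the library labelled cre 3, 23 of the 27 were below 0 and the median was -0.078.

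In the 4 libraries whose Tet3 level went with their labels, a choice that used the level of Tet3, 78 of 17003 genes were called (0.459%), 42 lower (0.247%) and 36 higher (0.212%) under the cre label, and again 0 of 54 members. At an unadjusted p under 0.05 there were 2 members, Ccnb2 and Cenpf, beside 11.2% of all genes. Cenpf had a log2 fold change of 0.21 (SE 0.086, unadjusted p of 0.0467, adjusted p of 0.431). The groups did not overlap for 12 members with the cre label lower and 7 with the cre label higher, where 20.2% and 20.4% of all genes did not overlap. Among the S phase genes 10 of 13 were below 0 with a median of -0.068, and among the mitosis genes 21 of 27 with a median of -0.062, where 50.1% of the genes tested both ways were below 0. Mcm3, Mcm6 and Rrm2, below 0 by the labels, were at 0.017, 0.16 and 0.0017 in the 4 libraries.

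The regulators around these genes were examined in lists of the same kind. By the labels, no gene of the 4 lists passed the adjusted threshold. The 2 smallest p-values among the other replication genes were those of Pole2, a subunit of the leading strand polymerase (log2 fold change -0.22, SE 0.090, unadjusted p = 0.0461), and Atad2, a chromatin ATPase induced by E2F (-0.13, SE 0.064, unadjusted p = 0.0746). Among the other mitosis genes they were those of Cit, a kinase of cytokinesis, and Pimreg, a gene of mitotic cells. Cit had a log2 fold change of -0.20 (SE 0.13, unadjusted p = 0.151). Pimreg was at 128, 110 and 111 CPM against 135, 143 and 131 CPM, without overlap (log2 fold change 0.23, SE 0.078, unadjusted p = 0.0193). In the 11 DREAM and E2F partners, 6 were above 0 and 5 below, with a median of 0.00087. Tfdp2, a dimer partner of E2F, was at 61.1, 60.1 and 58.9 CPM against 66.8, 65.4 and 64.7 CPM and did not overlap (log2 fold change 0.13, SE 0.057, unadjusted p = 0.0572). The next smallest p was that of Lin37, a MuvB subunit (log2 fold change -0.17, SE 0.12, unadjusted p = 0.183).

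The 11 CDK inhibitors and pocket proteins held the gene of all these lists with the largest difference between the labels. Cdkn2b encodes p15, an inhibitor of CDK4 and CDK6. It was at 8.04, 10.7 and 8.06 CPM under the control label and at 15.5, 17.0 and 13.5 CPM under the cre label. The groups did not overlap, with a log2 fold change of 0.78 (SE 0.15, unadjusted p = 0.00102 and 0.523 when adjusted). In the 4 libraries it was 0.79, at an adjusted p of 0.122. Its neighbour Cdkn2a, which encodes an inhibitor of the same kinases and the ARF protein, was at 47.0, 47.2 and 45.0 CPM against 53.2, 72.9 and 92.8 CPM, also without overlap (log2 fold change 0.65, SE 0.18, unadjusted p = 0.00712 and 0.816 when adjusted). In the 4 libraries, which leave out the highest one, it was 0.42 (SE 0.14), at an adjusted p of 0.320. Neither passed the test over all genes. Both were higher in all 3 libraries labelled cre, the one labelled cre 3 included, where Tet3 was at 116 CPM.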

How the data were processed

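Neurospheres of adult NSCs were profiled by stranded mRNA sequencing in 6 libraries, 3 per label. The authors aligned reads to GRCm38.p5 with Subread, counted them per Ensembl gene with Rsubread, and deposited whole-number counts with no normalization. Strand, multi-mapping and version settings are not given in the sources used here, so genes that share exon bases on opposite strands are uncertain (29.3% of the exon bases of Kif20a with Cdc23, 23.4% of Ccnd1, 19.7% of Cdk4 with Tspan31). All 6 count columns were mapped by name, and groups come from the titles alone. Of 49671 genes, 345 had no symbol.

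Counts were tested with edgeR 4.0.16 in R 4.3.3 (TMM, filterByExpr, quasi-likelihood test, two-sided) over 16916 genes, and over 17003 genes for 4 libraries. Alternatives were DESeq2 1.42.0, limma-voom (limma 3.58.1), the likelihood-ratio test, no filter, library size only, RLE normalization, a minimum of 1 CPM in 3 or more libraries, the replicate block, leaving out each library in turn, and the 4 libraries. The quasi-likelihood step was tested on simulated data. Log2 CPM used a prior count of 2, and exon lengths came from a later GRCm38 annotation than the one the authors used. The members, the lists and the 4 libraries were chosen with earlier results of these data known. Values per library are given for the 2 members of each phase group with the highest mean CPM per kb and the 2 with the smallest p. Of the other lists the 2 genes with the smallest p are named. Ccnb1, Cdc25b, Cenpf, E2f7, E2f8 and other genes outside this rule were named after their values were seen.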

Additional observations from a re-analysis of the deposited data

How the results depend on the processing

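No member was called under any of the 15 alternatives. The count of all genes called, 0 by the labels, was 70 with DESeq2, 51 with the likelihood-ratio test, 3 with no filter on low counts and 78 in the 4 libraries numbered 1 and 2. Leaving out each library in turn it ran from 0 to 18, the 18 without the library labelled control 3. The cause of these differences was not tested. The median of the mitosis genes, 0.0098 by the labels, ran from -0.078 (without the library labelled cre 3) to 0.039, that of the S phase genes from -0.15 to -0.044, and that of all members from -0.077 to 0.013. The replicate numbers did not pair the libraries (correlation of the deviations of same-numbered libraries -0.089, 0.0078 and -0.017). With the replicate block 0 genes and 0 members were called and the lowest adjusted p of a member was 0.995.

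The log2 fold changes of 12 named members changed sign in at least 1 alternative, those of Cdk6 (0.35 by the labels), Mcm3 (-0.19) and Mcm6 (-0.14) included. In the 4 libraries Cdk4 was at -0.025, Mcm3 at 0.017, Mcm6 at 0.16, Rrm2 at 0.0017, Ccna2 at -0.12 and Mki67 at -0.018. Leaving out 1 library at a time gave -0.029 to 0.11 for Ccnd1, -0.045 to 0.068 for Cdk4, -0.044 to 0.75 for Cdk6, -0.041 to 0.014 for E2f3, -0.26 to 0.13 for Mcm6, -0.078 to 0.086 for Ccna2, -0.092 to 0.073 for Plk1, -0.10 to 0.043 for Tpx2, -0.049 to 0.080 for Mki67 and -0.015 to 0.043 for Top2a. Ccnb2, Mcm5, Pcna, Cdt1, Cdc20 and Ccne2 stayed below 0 in all 15 alternatives. Ccnd3, Ccne1, E2f2, Foxm1 and Kif23 stayed above 0 in all 15. With 3 libraries per label, a difference of 0.78 with an SE of 0.15 (Cdkn2b) did not pass the adjusted threshold. The unadjusted 95% intervals thus bound the members' differences by the labels only, and are not the size that would be called.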
